A study of Mus musculus with 6 samples.

Results

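The nuclear-encoded subunits of the mitochondrial respiratory chain were taken from the deposited gene counts of Pontin cTG and WT hearts. They are the protein-coding genes whose symbols begin Nduf followed by a, b, c, s or v and a digit (complex I), Sdha to Sdhd (complex II), Uqcr or Cyc1 (complex III), Cox4 to Cox8 (complex IV) and Atp5 (complex V). This rule took 89 of the 56748 genes in the table, 39 in complex I, 4 in complex II, 9 in complex III, 19 in complex IV and 18 in complex V, and used no measured value. Pontin (gene symbol Ruvbl1) is an AAA+ ATPase of chromatin-remodelling complexes. The transgene of the Pontin cTG mice is a human Pontin cDNA with a flag tag, driven in cardiomyocytes by the mouse αMHC promoter. The founders were bred on C57Bl/6. RNA was taken from heart tissue of 3 Pontin cTG mice and 3 WT littermates without the transgene, all adult males and all given angiotensin II by mini-osmotic pump over 14 days, at a daily dose of 1.5 mg/kg BW. No heart without angiotensin II was included, so the values compare genotypes under angiotensin II only.

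Oxidative phosphorylation supplies most of the ATP used by cardiomyocytes. Complex I oxidises NADH and complex II oxidises succinate, both passing electrons to ubiquinone. Complex III moves them on to cytochrome c, and complex IV reduces oxygen. Complexes I, III and IV pump protons across the inner membrane, and complex V, the ATP synthase, uses that gradient to make ATP. Complexes I, III, IV and V also contain subunits encoded by mitochondrial DNA, while every subunit of complex II is nuclear. Nuclear respiratory genes are often described with binding sites for NRF1, GABPA (an ETS factor), YY1 and oestrogen-related receptors (ERR) close to their start sites.

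All the libraries were of similar depth, with 12436822 to 13194038 counts in WT and 14584102 to 16888124 in Pontin cTG hearts, each WT library being smaller than each Pontin cTG library. The libraries are called WT 1 to WT 3 and cTG 1 to cTG 3. The library cTG 2 stood apart, at 52.0 on the first principal component of all genes tested (47.9% of the variance), against 17.1 for WT 2 and -24.2 to -13.3 for the others. Mouse Ruvbl1 had 216, 221 and 217 normalised counts in WT 1 to WT 3 and 249.9, 250.02 and 240.0 in cTG 1 to cTG 3. Whether reads of the human cDNA were counted under the mouse gene was not tested, so these values do not check the labels. Normalised counts are counts scaled to a common library size, and are compared between libraries for one gene only. In whole hearts, fewer cells of a type and less RNA per cell cannot be told apart.

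Of the 89 genes, 85 passed the filter on low counts. The other 4 were Ndufb11b, Cox8c and a second Ensembl entry named Atp5o (ENSMUSG00000116933), with 0 counts in every library, and Cox7b2, with at most 4 counts in a library. The 85 tested genes sat between -0.079 and 0.68 in log2 fold change (Pontin cTG over WT, given ± SE for single genes), and 81 of them lay above 0, a direction held by 50.2% of all 13888 genes tested. Their median log2 fold change was 0.23, a 1.18-fold level, against 0.0013 over all genes tested. None of the 85 passed an adjusted p of 0.05 in the quasi-likelihood test of edgeR (Benjamini-Hochberg adjustment over all genes tested, adjusted p = 0.999 for each), and 0% of all genes did. DESeq2 and limma-voom also called 0 of the members, with 0.00390% and 0.0216% of the genes they tested called.

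At an unadjusted p under 0.05 in edgeR, 12 of the 85 subunits were higher in Pontin cTG hearts, against 1.02% of all genes tested, and 0 were lower, against 1.03%. In 41 of the 85, or 48.2%, all Pontin cTG values lay above all WT values, an order found in 4.70% of all genes tested. The opposite order held for 0 subunits and 3.63% of all genes. The median standard error of a subunit's log2 fold change was 0.15, so a subunit at the median of the members lay less than 2 standard errors from 0.

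**Figure D1:**
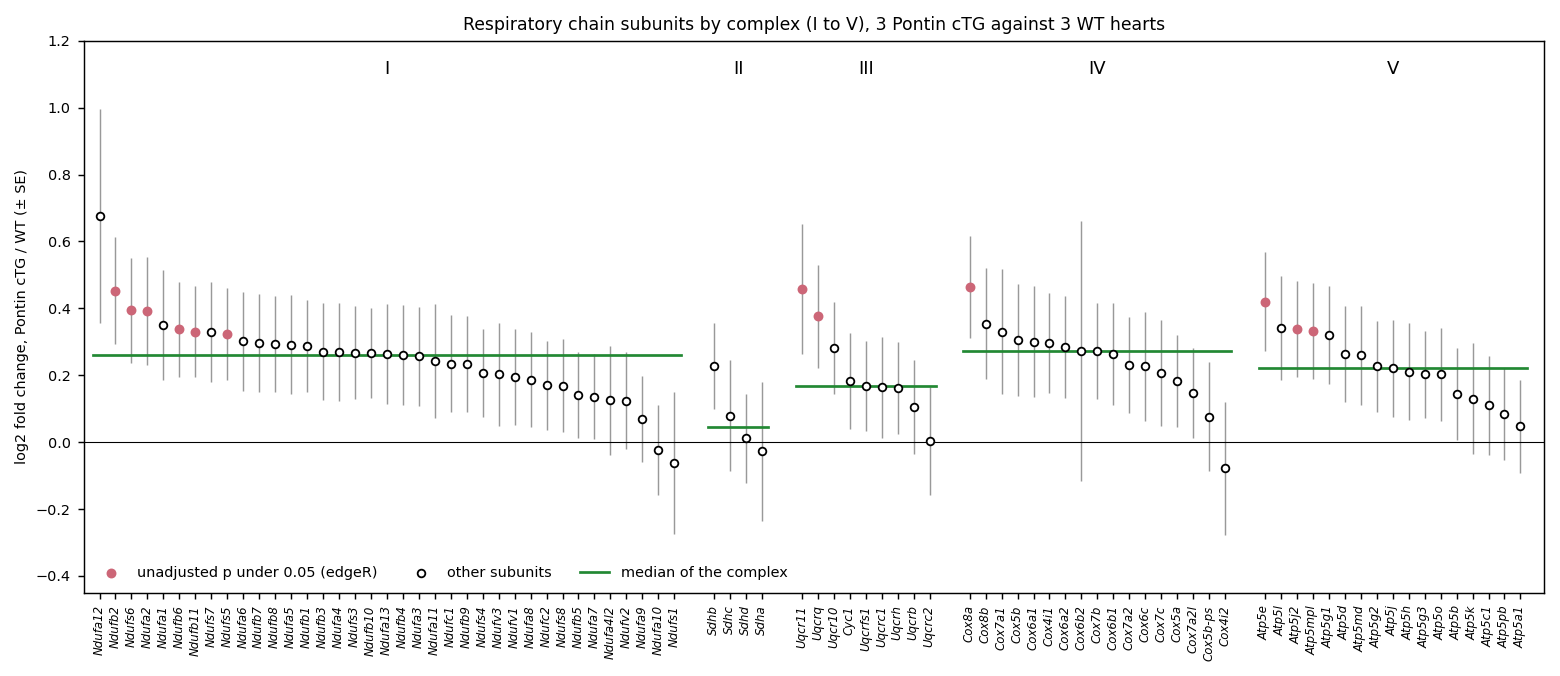
Log2 fold change (Pontin cTG over WT, y axis) of 84 of the 85 tested subunits, grouped by complex I to V, with the standard error as a bar and the median of all tested subunits of each complex as a green line. The 12 filled points had an unadjusted p under 0.05 and all lie above 0, and the 4 points below 0 are Ndufs1, Ndufa10, Sdha and Cox4i2.

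The shift was not of the same size in each heart. The median deviation of the 85 subunits from their own mean over the 6 libraries was -0.075, -0.24 and -0.035 on the log2 scale in WT 1 to WT 3 and 0.0067, 0.21 and 0.17 in cTG 1 to cTG 3. WT 2 was thus the lowest library, cTG 2 and cTG 3 were the highest, and cTG 1 lay only just above WT 3. By single genes, 66 of the 85 had their lowest value in WT 2, and 41 and 42 had their highest in cTG 2 and cTG 3. Of all 13888 genes tested, 2139 were lowest in WT 2, and 4198 and 2548 were highest in cTG 2 and cTG 3. The members took 3.68%, 3.54% and 3.85% of all counts in WT 1 to WT 3, and 4.00%, 4.43% and 4.35% in cTG 1 to cTG 3. These shares did not overlap between the groups.

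**Figure D2:**
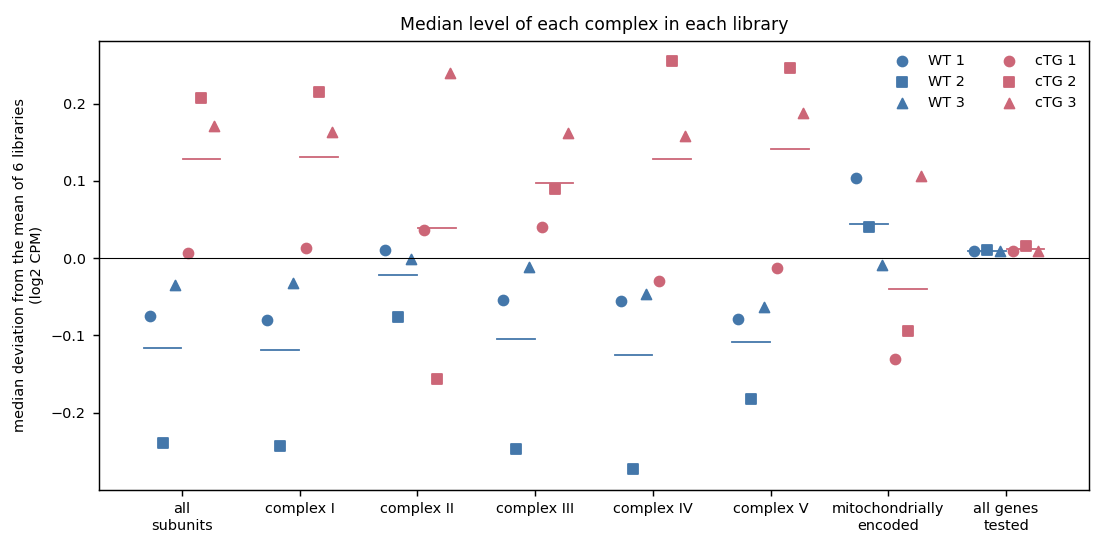
Median deviation (log2 CPM, y axis) of the genes of each complex from their mean over the 6 libraries, with 1 point per library (blue WT, red Pontin cTG, symbols for replicates 1 to 3) and the group mean as a line. WT 2 is lowest for complexes I, III, IV and V, while in complex II the lowest point is cTG 2, and the mitochondrially encoded subunits do not follow the nuclear ones.

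Subunit length moved with the result. The transcripts of the members are short, with a median of 745 bases against 2790 over all genes tested (GENCODE M21, the transcript with the longest coding sequence). Across the 85 members, the deviation in cTG 2 had a Spearman correlation of -0.49 with transcript length, and that in WT 2 one of 0.43. It was 0.27 in WT 1, 0.20 in WT 3, 0.34 in cTG 1 and -0.073 in cTG 3. Over all 13739 tested genes with such a transcript, the WT 1 to WT 3 values were 0.25, 0.13 and 0.18. In cTG 1 to cTG 3 they were 0.15, -0.28 and -0.15. The log2 fold change itself correlated with length at -0.49 across the members and -0.37 over those genes. With the GC share of the transcript, it correlated at 0.18 across the members and 0.32 over those genes. Genes of one library share its depth and RNA, so these are descriptions across genes. Split at that median, the log2 fold changes had medians of 0.27 over the 43 members with transcripts of 745 bases or fewer and 0.19 over the 42 longer ones. None of the shorter 43 was lowest in cTG 2, against 8 of the longer 42.

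When the fit was corrected for gene length, the median of the members was 0.15, with 78 of 85 above 0 and 5 higher at an unadjusted p under 0.05, against 0.662% of all genes. With the length of the M21 transcript in its place, a correction added after the values were seen, the median was 0.13, with 75 of 85 above 0 and 4 higher at an unadjusted p under 0.05, against 0.648% of all genes. With an offset for transcript GC share, added at the same stage, the median was 0.20, with 81 of 85 above 0. In that fit 14 members were higher at an unadjusted p under 0.05, and 253 of 13739 genes in either direction had one. On the scale corrected for the table's gene length, the groups did not overlap, Pontin cTG above WT, in 28 of 85 members and in 3.77% of all genes tested. Without WT 2 and cTG 2, also added after the values were seen, the median was 0.16, 81 of 85 lay above 0, and 8 were higher at an unadjusted p under 0.05, against 1.75% of all genes. With 2 hearts left per group, both Pontin cTG hearts lay above both WT hearts in 50 of 85 members and below them in 2, against 16.1% and 16.6% of all genes.

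**Figure D3:**
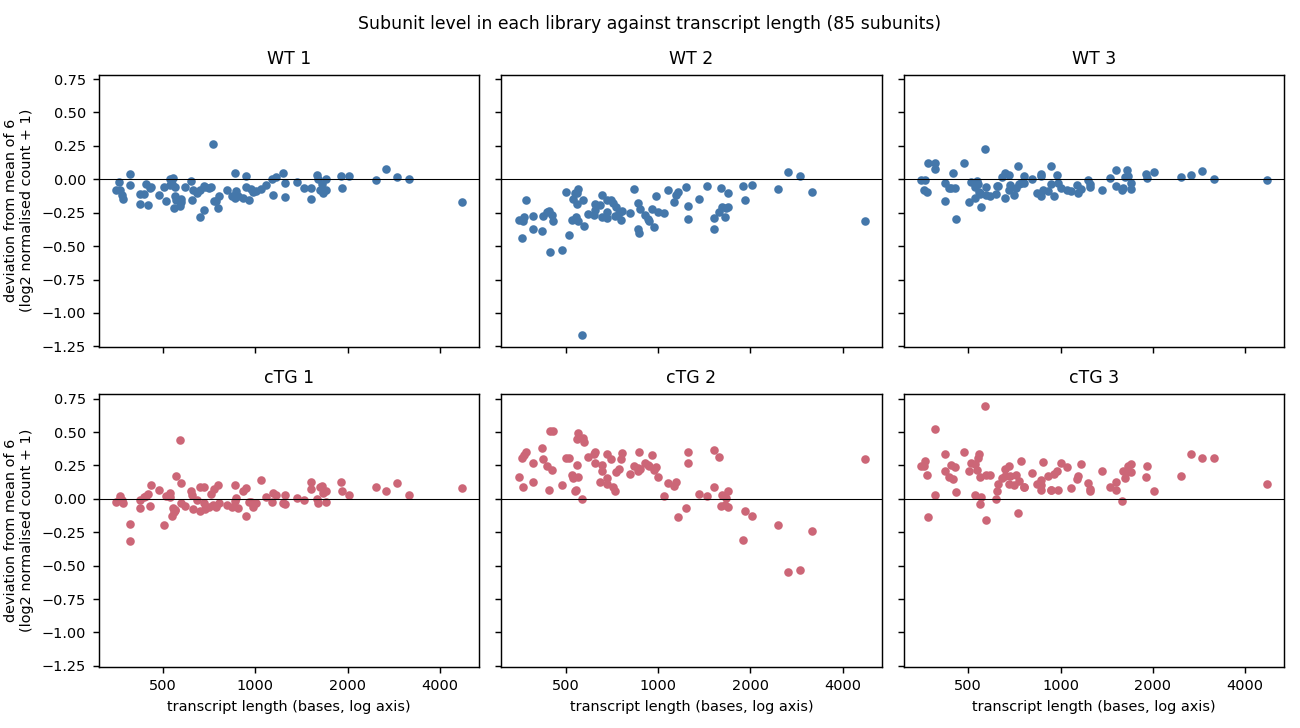
Deviation of each of the 85 tested subunits from its mean over the 6 libraries (log2 of normalised count + 1, y axis) against transcript length (bases, log x axis), with 1 panel per library. The points slope downward in cTG 2 and upward in WT 2, with Spearman correlations of -0.49 and 0.43. The correlations were 0.20 to 0.34 in WT 1, WT 3 and cTG 1, and -0.073 in cTG 3.

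RefSeq promoter windows (GRCm38.p6, 250 bases before to 50 after a start) were matched by symbol for 69 member symbols, with 74 windows. The table had no entry under symbols that include Ndufa2, Ndufa4l2, Ndufb9, Ndufb11b, Ndufs1, Sdhc, Uqcrb, Uqcrc2, Uqcrq, Cyc1, Cox4i1, Cox4i2, Cox5b-ps, Cox6a2, Cox6c, Cox8c, Atp5a1 and Atp5mpl. Motif letters were searched on both strands. The NRF1 letters GCATGCGC stood in 13.5% of the member windows, against 2.71% of all 32851 windows and 5.01% of those of protein-coding genes tested here. The ETS letters CCGGAAG stood in 23.0%, against 8.86% and 16.8%. The YY1 letters AAGATGGC stood in 13.5%, against 2.75% and 4.22%, and the ERR letters CAAGGTCA in 5.41%, against 1.56% and 1.07%. In all, 33 members had at least 1 of these motifs and 7 had more than 1 kind. Different motifs overlapped in 0 members, while the NRF1 letters overlapped their own reverse complement in 5.

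The 120 bases before the start are shown for 1 member of each complex, the one with the smallest p among those with a motif there, to let the letters be seen in place. Capitals mark the motifs that lie wholly within these bases, NRF1 in Ndufa6 and Sdhb, and ETS, on either strand, in Uqcr11, Cox6a1 and Atp5e. The windows are at chr15:82354292-82354411, minus strand (Ndufa6), chr4:140961151-140961270, plus strand (Sdhb), chr10:80406822-80406941, minus strand (Uqcr11), chr5:115348959-115349078, minus strand (Cox6a1) and chr2:174464102-174464221, minus strand (Atp5e).
Ndufa6: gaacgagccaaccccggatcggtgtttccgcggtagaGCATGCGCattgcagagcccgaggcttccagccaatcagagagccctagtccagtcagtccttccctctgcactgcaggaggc
Sdhb: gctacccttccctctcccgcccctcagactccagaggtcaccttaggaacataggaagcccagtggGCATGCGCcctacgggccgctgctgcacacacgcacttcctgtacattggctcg
Uqcr11: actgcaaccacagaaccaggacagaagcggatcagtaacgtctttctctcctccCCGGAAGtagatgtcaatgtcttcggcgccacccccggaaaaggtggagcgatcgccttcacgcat
Cox6a1: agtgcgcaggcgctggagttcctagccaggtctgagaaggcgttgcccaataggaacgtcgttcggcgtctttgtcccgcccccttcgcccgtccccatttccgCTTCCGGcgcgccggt
Atp5e: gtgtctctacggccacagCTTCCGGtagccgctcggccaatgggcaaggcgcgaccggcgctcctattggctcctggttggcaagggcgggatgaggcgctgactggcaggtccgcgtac

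The YY1 letters often stood just inside the transcript. In 8 of the 10 members with them, they began between bases 23 and 39 counted from the start site, on the strand of the gene. These are shown with 4 bases on each side, with the motif in capitals, because 8 genes carry the same letters at nearly the same place: chr7:3617391-3617406, plus strand (Ndufa3), chr6:126849104-126849119, minus strand (Ndufa9), chr19:44555393-44555408, minus strand (Ndufb8), chr3:51408922-51408937, minus strand (Ndufc1), chr13:114388048-114388063, minus strand (Ndufs4), chr13:73328438-73328453, minus strand (Ndufs6), chr10:80249469-80249484, plus strand (Ndufs7) and chr5:145191507-145191522, minus strand (Atp5j2).
Ndufa3: gaacAAGATGGCcggg
Ndufa9: ggagAAGATGGCggcc
Ndufb8: ggtgAAGATGGCtgcc
Ndufc1: gaacAAGATGGCgccg
Ndufs4: caggAAGATGGCggcg
Ndufs6: cggcAAGATGGCggcg
Ndufs7: ggccAAGATGGCggcg
Atp5j2: cttcAAGATGGCgtca
A match is a string of letters and not a bound site. The median log2 fold change was 0.26 both for the 33 tested members with any of the 4 motifs and for the 35 with a window and no motif.

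Complex I held the most members. Of its 38 tested genes, 36 lay above 0, 6 had an unadjusted p under 0.05, and in 23 the groups did not overlap. Its median log2 fold change was 0.26. The 7 core subunits, which carry the flavin and the iron-sulphur clusters, had a median of 0.18 with none at an unadjusted p under 0.05. The 31 tested supernumerary subunits, which surround the core, had a median of 0.27 with 6. Core transcripts were 758 to 2661 bases, all above the members' median of 745, and supernumerary ones 351 to 2020. The part of transcript length in this difference was not tested.

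Among the core subunits, Ndufv1, which binds the flavin that takes electrons from NADH, had 8637, 8013 and 9440.4 normalised counts in WT 1 to WT 3 and 9557, 9311 and 11009 in cTG 1 to cTG 3, which overlapped (log2 fold change 0.20 ± 0.14, SE). Ndufs1, the largest core subunit, was the member of complex I with the smallest p below 0 (log2 fold change -0.063 ± 0.21). Its WT values of 9701, 9523 and 9387 lay close together, whereas cTG 2 had 6272 and cTG 3 11580.1, below and above all WT hearts. Without cTG 2 its log2 fold change was 0.15.

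Of the supernumerary subunits, Ndufb2 (chromosome 6, 39569508 to 39580316, in the table's coordinates, for which the submitters' notes name GRCm39) had the smallest p. It had 362, 304 and 307 normalised counts in WT and 406, 536 and 389.8 in Pontin cTG hearts, a log2 fold change of 0.45 ± 0.16 (unadjusted p = 0.020, edgeR). The groups did not overlap and cTG 2 was highest. Ndufb2 was also lowest for its length, at 4.85 CPM per kb of the 5628 bases that the table gives it, but at 59.95 CPM per kb of its 455-base M21 transcript it was not.

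The other supernumerary subunits with an unadjusted p under 0.05 were Ndufs6, Ndufa2, Ndufb11, Ndufb6 and Ndufs5, named after their values had been seen. Ndufs6, a zinc-binding subunit next to the core, had 2271, 1900.2 and 2509.6 in WT and 2583, 3135 and 3063 in Pontin cTG hearts. Ndufb11, a membrane-arm subunit on the X chromosome, had 3587, 3274 and 3707 in WT and 4104, 4743 and 4440.4 in Pontin cTG hearts. Ndufb6, also in the membrane arm, had 1162, 1163 and 1462 in WT and 1502, 1632 and 1650.2 in Pontin cTG hearts. In all 5 the groups did not overlap, with log2 fold changes from 0.32 to 0.39 and unadjusted p from 0.034 to 0.043.

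The remaining supernumerary subunits ran from -0.024 (Ndufa10) to 0.35 (Ndufa1), Ndufa12 aside. Ndufa1, a membrane-arm subunit needed to assemble the complex, had 1793, 1481 and 1895 in WT and 1846, 2515 and 2227 in Pontin cTG hearts, with WT 3 above cTG 1. Ndufs4, whose loss in mice gives an encephalopathy of the Leigh type, had 2027, 1855 and 2104 in WT and 2226, 2229 and 2457 in Pontin cTG hearts (0.21 ± 0.13), without overlap. Ndufa10, with 7482, 7109 and 7635 in WT and 7482, 6718 and 7664 in Pontin cTG hearts, was lowest in cTG 2. These 3 were named after their values had been seen.

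The largest log2 fold change of complex I, and of all members, was that of Ndufa12, at 0.68 ± 0.32, which did not pass the unadjusted threshold (unadjusted p = 0.065). Its values were 1644, 844 and 2212 in WT and 2569, 1889 and 3051 in Pontin cTG hearts, so that WT 2 lay far below the rest and WT 3 above cTG 2. A copy, Ndufa12-ps, had 834, 933 and 715 normalised counts in WT and 757, 982 and 778 in Pontin cTG hearts (0.020 ± 0.16). Reads can be split between the copies, so the value of Ndufa12 is uncertain. Ndufa12 was singled out after its values had been seen.

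Ndufa4, named as a complex I subunit but now placed in complex IV, had 6810.0, 5924 and 6844 in WT and 6894, 8279 and 8420.0 in Pontin cTG hearts (0.27 ± 0.15). The groups did not overlap, though cTG 1 exceeded WT 3 by little. Ndufa4l2, its relative known from hypoxic cells, was far lower, at 15.6 CPM per kb against 369.9 for Ndufa4, with a log2 fold change of 0.13 ± 0.16 and overlapping groups.

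Complex II had the lowest median of the complexes, 0.045 on the log2 scale, and 0 of its 4 genes had an unadjusted p under 0.05. Its difference from the other complexes was not tested, and its transcripts, of 1142 to 3171 bases, were longer than the members' median of 745. Sdha, the flavoprotein that oxidises succinate, was highest by the table's gene length (363 CPM per kb). Per kb of M21 transcript, Sdhb was higher, at 628 against 517 for Sdha. Sdha had 21097, 21125 and 21721 normalised counts in WT and 22630.5, 14354 and 25741 in Pontin cTG hearts (-0.028 ± 0.21). One Pontin cTG heart, cTG 2, was the lowest of all 6 and cTG 3 the highest. Sdhb, the iron-sulphur subunit, was the exception, with 9288, 9282 and 9362 in WT and 10397, 10974 and 11343 in Pontin cTG hearts. The groups did not overlap there, the WT values were nearly equal, and the log2 fold change was 0.23 ± 0.13 (unadjusted p = 0.11, edgeR).

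The membrane anchors gave no such order. Sdhc, lowest for its length (127 CPM per kb), had 5776, 5403 and 5796 in WT and 5888, 4888 and 7148 in Pontin cTG hearts, with cTG 2 below and cTG 3 above all WT hearts, and Sdhd had a log2 fold change of 0.012 ± 0.13. Without cTG 2 the median of complex II was 0.19, near those of the other complexes in that fit (0.18 to 0.22). Without cTG 3 it was -0.059. The place of complex II as the lowest thus rested on cTG 2. With any other single library left out it stayed the lowest, with medians of -0.059 to 0.069.

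All 9 genes of complex III lay above 0, with a median log2 fold change of 0.17. The 4 subunits of the catalytic and core parts had a median of 0.17 and the 5 small subunits one of 0.28. Transcripts were 1363 to 1896 bases in the former, and 434 to 547 in the small subunits other than Uqcrq (1521). The part of transcript length in this difference was not tested. Both genes with an unadjusted p under 0.05 were small subunits. Uqcrq, which is in the ubiquinone-binding region, had 4556, 3890.2 and 4864 normalised counts in WT and 5311, 6475 and 5489 in Pontin cTG hearts, without overlap (0.38 ± 0.15, unadjusted p = 0.037, edgeR). It was also lowest for its length in complex III, at 198 CPM per kb. Uqcr11, named after its values were seen, had 2946, 2302 and 3469 in WT and 3458, 4774 and 3734 in Pontin cTG hearts (0.46 ± 0.19), where WT 3 was above cTG 1.

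The Rieske iron-sulphur protein Uqcrfs1 was highest by the table's gene length (585 CPM per kb). Per kb of M21 transcript, Uqcrh (727) and Uqcrc1 (600) were above it. The values of Uqcrfs1 were 11035, 10101 and 10603 in WT and 11252, 11471 and 12938 in Pontin cTG hearts (0.17 ± 0.13), without overlap. Cyc1, cytochrome c1, had 9781, 8368 and 10720.3 in WT and 11171, 10877 and 10719.9 in Pontin cTG hearts (0.18 ± 0.14). WT 3 was level with cTG 3, while WT 2 was well below the rest. Of the other small subunits, Uqcr10 had 2346, 2134 and 2426 in WT and 2555, 3009.7 and 2831 in Pontin cTG hearts, without overlap (0.28 ± 0.14), while Uqcrb and Uqcrh overlapped. The core protein Uqcrc2 had the smallest fold change of complex III, at 0.0033, and was lowest in cTG 2.

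In complex IV, 16 of 17 tested genes lay above 0 and the median log2 fold change was 0.27, but only Cox8a had an unadjusted p under 0.05, and the groups did not overlap in 5. Cox8a (chromosome 19, 7192518 to 7194981), the form of the small subunit VIII found in most tissues, had 1099, 986 and 1059 normalised counts in WT and 1381, 1718 and 1235 in Pontin cTG hearts. Its log2 fold change was 0.46 ± 0.15, and its unadjusted p of 0.014 (edgeR) was the smallest of all members. Its WT values were close together and cTG 2 was highest. Cox8b, the form of heart and skeletal muscle, had 4385, 3283 and 4211 in WT and 4431, 5491 and 5263 in Pontin cTG hearts (0.35 ± 0.16). Here cTG 1 was only just above WT 1, and WT 2 was well below the rest.

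Several complex IV subunits come in a form that striated muscle favours and one that other tissues favour. Cox6a2, the muscle form of subunit VIa, was highest by the table's gene length at 1401 CPM per kb, and Cox6a1 had 110.3. Per kb of M21 transcript, Cox4i1 was higher, at 1876 against 1401 for Cox6a2. Cox6a2 had 12839, 10885 and 12592 normalised counts in WT and 13026, 16816 and 14375 in Pontin cTG hearts (0.28 ± 0.15). Cox6a1 had 971, 968 and 994 in WT and 1169.7, 1478 and 964 in Pontin cTG hearts (0.30 ± 0.17), with cTG 3 just below the WT hearts. The muscle form Cox7a1 (0.33 ± 0.19) and the general form Cox7a2 (0.23 ± 0.14) overlapped between the groups.

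Cox7b and Cox6b1 were the other subunits of complex IV without overlap beside Cox8a, Cox8b and Cox6a2, named after their values were seen. Cox7b had 5134, 4607 and 5229 in WT and 5356, 6126 and 6592 in Pontin cTG hearts (0.27 ± 0.14), and Cox6b1, which binds on the side facing cytochrome c, had 6037, 5067 and 5628 in WT and 6328, 7685 and 6085 in Pontin cTG hearts (0.26 ± 0.15). Cox5a, Cox5b, Cox6c and Cox7c overlapped, with log2 fold changes of 0.18 to 0.31, and Cox7a2l, a factor that joins complexes III and IV, had 0.15.

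Cox4i1, the general form of subunit IV, had 17459.9, 16421 and 19123 in WT and 18662, 22731 and 23706 in Pontin cTG hearts (0.30 ± 0.15), with cTG 1 inside the WT range. Cox4i2, known from lung and hypoxia, had 118, 80.8 and 105 in WT and 94.7, 102 and 91.0 in Pontin cTG hearts, the one gene of complex IV below 0 (-0.079 ± 0.20), with full overlap. Cox6b2, known from testis, was lowest for its length at 0.970 CPM per kb. Cox5b-ps is marked as protein-coding in the table but is a near-copy of Cox5b, so that reads may be shared, and its values are uncertain (0.076 ± 0.16).

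The balance between paired forms was compared within each library, where depth cancels, as the ratio of counts per base of the table's gene length. Over 7 pairs, the smallest exact permutation p (two-sided, on log2 ratios) was 0.2 and the adjusted p were 0.70 to 1, in a design that cannot go below 0.1. The Cox6a2 to Cox6a1 ratio was 13.6, 11.6 and 13.1 in the WT hearts and 11.5, 11.7 and 15.4 in the Pontin cTG hearts. The Cox7a1 to Cox7a2 ratio was 1.74, 1.35 and 2.13 in the WT hearts and 2.00, 1.61 and 2.02 in the Pontin cTG hearts. The Cox8b to Cox8a ratio was 6.86, 5.73 and 6.84 in the WT hearts and 5.52, 5.49 and 7.33 in the Pontin cTG hearts. In all of these the groups overlapped, and the muscle form was the higher one in each heart.

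The Cox4i1 to Cox4i2 ratio had the largest difference, 0.35 on the log2 scale, with 75.3, 103 and 92.5 in the WT hearts and 100.2, 113 and 132 in the Pontin cTG hearts. WT 2 was above cTG 1, and the exact p was 0.2 (adjusted p = 0.70). Mean ratios of Ndufa4 to Ndufa4l2 were 24.9 ± 1.75 in Pontin cTG and 22.7 ± 1.68 in WT hearts (SD, n = 3 each, exact permutation p = 0.2). The ratios depend on the length used: per base of the M21 transcript, the mean Cox4i1 to Cox4i2 ratio in WT was 174 and not 90.4.

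**Figure D4:**
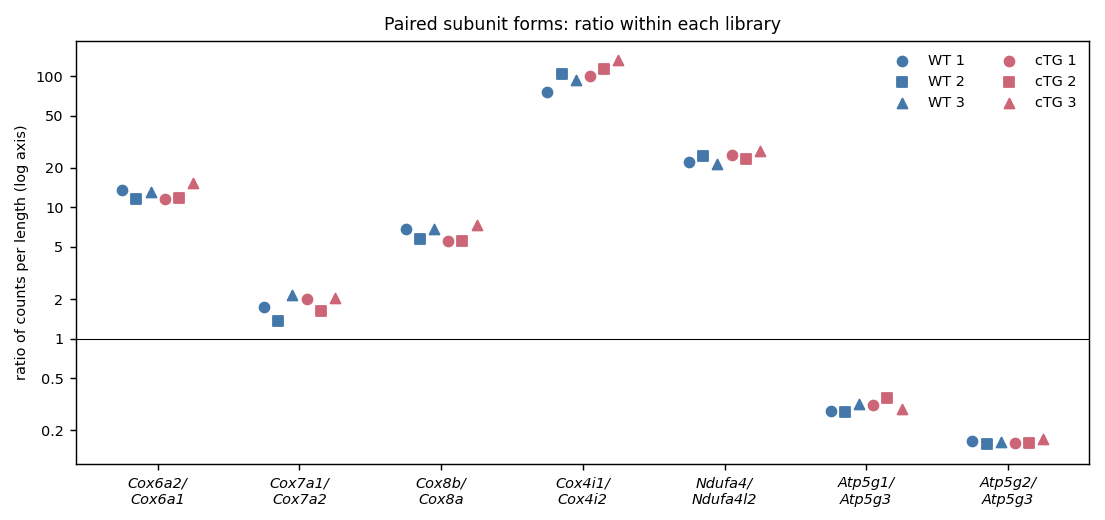
Ratio of counts per gene length (log y axis) for 7 pairs of subunit forms, with 1 point per library (blue WT, red Pontin cTG, symbols for replicates 1 to 3). The groups overlap in all 7 pairs, and the 5 pairs of complexes I and IV lie above 1 while the pairs over Atp5g3 lie below it.

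Complex V had 17 tested genes, all above 0, with a median log2 fold change of 0.22. In 9 the groups did not overlap, and 3 had an unadjusted p under 0.05. The 5 subunits of the catalytic F1 part had a median of 0.14, the 4 of the peripheral stalk 0.21, the 3 genes of the c ring 0.23, and the 5 other membrane subunits 0.33. Transcripts ran from 421 to 2471 bases in F1 and from 362 to 955 in the other membrane subunits. The part of transcript length in these differences was not tested.

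The α and β subunits gave small differences. Atp5a1, the α subunit, was highest for its length in complex V (1392 CPM per kb of the table's length), with 60892, 58304 and 62153 normalised counts in WT and 65142, 53433 and 68795 in Pontin cTG hearts (0.047 ± 0.14). Atp5b, the β subunit, had 65264, 61300.1 and 68626 in WT and 70954, 63946 and 80716 in Pontin cTG hearts (0.14 ± 0.14). In both, cTG 2 was below cTG 1 and cTG 3, and for Atp5a1 it was below all WT hearts. By transcript length, Atp5b was the highest of all members, at 2537 CPM per kb.

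Atp5e (chromosome 2, 174302865 to 174305898), the small ε subunit of F1, had the smallest p of complex V. It had 3161, 2978 and 3214 in WT and 3565, 4416 and 4534 in Pontin cTG hearts, a log2 fold change of 0.42 ± 0.15 (unadjusted p = 0.019, edgeR). The WT hearts were close together and all Pontin cTG hearts were above them. Atp5j2 and Atp5mpl, small membrane subunits named after their values had been seen, had log2 fold changes of 0.34 ± 0.14 and 0.33 ± 0.14, without overlap.

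The c ring, which turns with the proton flow, is made of 1 mature protein encoded by 3 genes. All 3 were without overlap. Atp5g1 had 10059, 9109 and 11290.5 in WT and 11958, 13884 and 12191 in Pontin cTG hearts (0.32 ± 0.15). Atp5g2 had 2015, 1753 and 1978 in WT and 2097, 2159 and 2465 in Pontin cTG hearts (0.23 ± 0.14). Atp5g3, the most abundant per length, had 15908, 14623 and 15786 in WT and 17018, 17568 and 18747 in Pontin cTG hearts (0.20 ± 0.13). None reached an unadjusted p under 0.05, and the Atp5g1 to Atp5g3 ratio (0.317 ± 0.0314 in Pontin cTG and 0.292 ± 0.0226 in WT hearts, SD, n = 3 each, exact permutation p = 0.3) and the Atp5g2 to Atp5g3 ratio (exact permutation p = 0.7) overlapped between the groups. 

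The peripheral stalk, which holds the catalytic part still, had 1 of its 4 tested genes without overlap, Atp5o, with 4481, 4636 and 4556 in WT and 4674, 5789.9 and 5271 in Pontin cTG hearts (0.20 ± 0.14). Its other genes, Atp5pb, Atp5h and Atp5j, had log2 fold changes of 0.085 to 0.22. Atp5l, a membrane subunit, was lowest for its length by the table (32.7 CPM per kb) and had a log2 fold change of 0.34 ± 0.15. The ATPase inhibitor Atpif1, which the symbol rule does not take, had 622, 518 and 468 in WT and 502, 873 and 527 in Pontin cTG hearts (0.24 ± 0.22), with cTG 2 alone above the WT range.

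**Figure D5:**
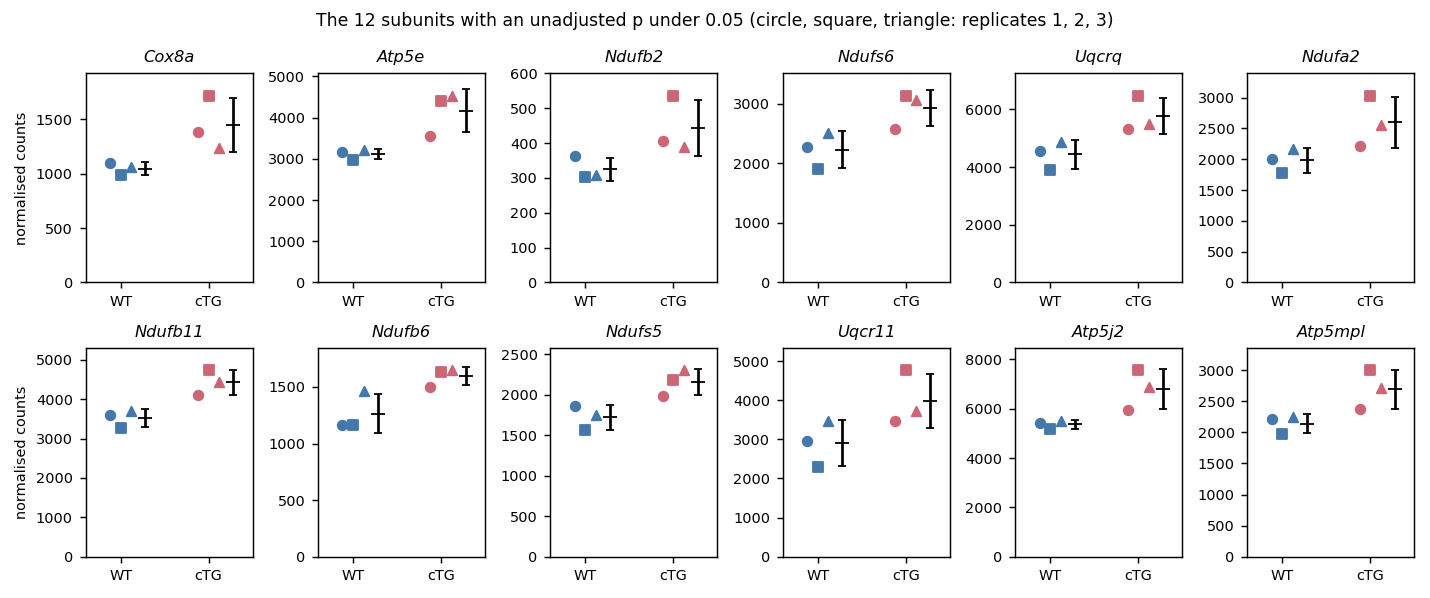
Normalised counts (y axis, from 0) of the 12 subunits with an unadjusted p under 0.05 in the WT and Pontin cTG hearts, with 1 point per heart and the group mean ± SD as a bar. The groups do not overlap in 11 of the 12, the exception being Uqcr11, and cTG 2 is the highest heart in 9.

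The 12 subunits had log2 fold changes between 0.32 and 0.46 and short transcripts, of 366 to 1521 bases. Their lowest value was in WT 2 in 11 and their highest in cTG 2 in 9 and in cTG 3 in 3, so a few hearts held most of the extreme values. Without WT 2, none of the 85 members had an unadjusted p under 0.05 in edgeR, against 0.590% of all genes in the same direction, and the median was 0.17. Without cTG 3, 4 did (against 1.60% of all genes, with a median of the members of 0.21), without WT 1, 3 did (against 0.333%, median 0.27), and without cTG 1, 19 did (against 2.05%, median 0.31). Without cTG 2, 16 of the 85 did, all higher in Pontin cTG hearts, with 82 above 0 and a median of 0.20. In that fit, 686 of 13978 genes tested had such a p in either direction.

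The 13 subunits encoded by mitochondrial DNA lay mostly on the other side of 0. Their median log2 fold change was -0.11, with 11 of 13 below 0, and mt-Nd4l alone had an unadjusted p under 0.05 (-0.58 ± 0.24, unadjusted p = 0.042, edgeR). Pontin cTG lay wholly below WT in 0 of the 13, against 3.63% of all genes tested. Their median deviation was highest in cTG 3 (0.11), beside 0.10 in WT 1, and lowest in cTG 1 (-0.13). The ratio of nuclear to mitochondrial subunit counts was 0.143, 0.143 and 0.162 in WT and 0.175, 0.189 and 0.176 in Pontin cTG hearts, without overlap. The mitochondrial subunits alone took 25.7%, 24.8% and 23.8% of all counts in WT and 22.8%, 23.4% and 24.7% in Pontin cTG hearts, which overlapped.

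The factors that build each complex had a smaller median than its subunits, a difference that was not tested. Of the 17 tested assembly factors of complex I, 10 lay above 0 with a median of 0.020, and Ndufaf8 had an unadjusted p under 0.05 (0.33 ± 0.15, unadjusted p = 0.048, edgeR). The 4 of complex II had a median of 0.013 with 0 under 0.05, and the 17 tested of complex IV 0.13, also with 0. For complex III, Uqcc2 alone of 6 was under 0.05 (0.30 ± 0.12, unadjusted p = 0.037, edgeR; median 0.064). For complex V, Fmc1 alone of 4 was (0.40 ± 0.14, unadjusted p = 0.020, edgeR; median 0.11). Fmc1 had 486, 446 and 505 normalised counts in WT and 531, 662 and 697 in Pontin cTG hearts, without overlap. Cytochrome c (Cycs) and the supercomplex factors Higd1a and Higd2a had log2 fold changes of 0.17, 0.15 and 0.24, with 0 under 0.05.

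For the 12 regulators of respiratory genes the median was -0.056 on the log2 scale, with 5 above 0 and 0 at an unadjusted p under 0.05. Esrra, the receptor ERRα, had the smallest p (0.24 ± 0.16, unadjusted p = 0.18, edgeR). Of the factors whose letters were searched, Nrf1 had 0.12, Gabpa -0.035 and Yy1 0.034. In cTG 2, 7 of the 12 regulators had their lowest value, as did 4259 of all 13888 genes tested. There Ppargc1a, a coactivator of mitochondrial genes, had 771 against 1341 in cTG 1, and Ppara, a regulator of fatty acid oxidation, had 105 against 737. The library with the highest small subunits was thus the lowest for 7 of the 12 regulators, while Gabpb1 was highest there (217). The part of transcript length in these values was not tested.

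Markers of cell types were set beside these values. The summed level of the 7 cardiomyocyte markers was 44689.5 to 52721 CPM in WT and 43748 to 48836 in Pontin cTG hearts (median log2 fold change -0.042), and 0 were at an unadjusted p under 0.05. These markers went both ways. The contractile genes Tnni3 (0.30 ± 0.14) and Myl2 (0.24 ± 0.12) were above WT without overlap, by about as much as the subunits, Actc1 (-0.11 ± 0.11) was below WT without overlap, and the calcium channel Ryr2 overlapped (-0.34 ± 0.26). For the 6 fibroblast markers the sums were 1063 to 1844 and 1017 to 1678 (median -0.054), for the 5 endothelial markers 862 to 873 and 742 to 1059.9 (0.023), for the 5 smooth muscle and pericyte markers 977 to 1112 and 949 to 986 (-0.11, 4 tested), and for the 5 erythroid markers 936 to 1586 and 830.2 to 1506 (0.0045), with 0 under 0.05 in each.

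The 5 macrophage markers summed to 160.5 to 262 CPM in WT and 118 to 172 in Pontin cTG hearts, with a median of -0.46. Mrc1 alone was under 0.05 (-0.66 ± 0.29, unadjusted p = 0.048, edgeR). Csf1r lay below WT without overlap (-0.39 ± 0.18), an order found in 3.63% of all genes tested. Of the 5, 4 were highest in WT 2, the heart with the lowest subunits, as were 2338 of all 13888 genes tested. All 5 were lowest in cTG 3, a heart with high subunits, as were 2458 of all genes tested. Lymphocyte, adipocyte and skeletal muscle markers were too low to be tested, with sums of at most 1.51, 0.485 and 1.22 CPM in any heart. Of the 5 skeletal muscle markers, which bear on the muscle forms Cox6a2, Cox7a1 and Cox8b, Myh1 and Myh4 were at 0 counts in every heart and Myh2 at 0 or 1, while Tnnt3 had 1 to 12 counts and Mylpf 1 to 12, each highest in a Pontin cTG heart. Their sums were 0.159 to 0.625 CPM in WT and 0.416 to 1.22 in Pontin cTG hearts. The part of cell makeup and of transcript length in the subunit values was not tested beyond the corrections given.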

How the data were processed

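RNA-seq gene counts of 3 Pontin cTG and 3 WT hearts were used. The deposited counts are whole numbers per Ensembl gene, not normalised. The study's methods name Trimmomatic, STAR, mm10 and Gencode M25, whereas the submitters' processing notes name fastp, HISAT2, featureCounts, DESeq2 and GRCm39. Which of these made the table is not settled here, the table's coordinates are not those of GRCm38, and whether strand was used in counting is not given in the sources used here. The study's methods mention a library left out as an outlier without naming it, and all 6 were kept. The labels name the column of each sample (0 columns were unmatched).

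Genes were filtered with filterByExpr (minimum count 10), scaled by TMM and compared by quasi-likelihood in edgeR 4.0.16 under R 4.3.3 (glmQLFit with a robust fit and glmQLFTest, genotype as the only term, Benjamini-Hochberg over 13888 genes). The standard error is the size of the log2 fold change divided by the square root of F. For normalised counts, each count was divided by its library's TMM-scaled size and put back on the scale of their geometric mean. CPM per kb is the mean over the 6 libraries. Named subunits are, per complex, the highest and lowest per gene length, the smallest p in each direction, and a fixed list of catalytic and paired subunits. The values of 1 subunit are not reported here, though it is counted in the summaries. Members and lists were chosen with earlier results of these data known. Any 2 libraries differed by more than sampling noise (chi-square per gene of at least 5.62). The tests were first run on simulated counts. Alternatives were DESeq2 1.42.0, its size factors, library size alone, other filters and gene sets, limma-voom (limma 3.58.1), a gene length offset, the replicate block and each library left out. Offsets for transcript length and GC (GENCODE M21, GRCm38; 98.9% of genes) and leaving out replicate 2 of both groups were added after the data had been seen.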

Additional observations from a re-analysis of the deposited data

How the results depend on the processing

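None of the subunits passed an adjusted p of 0.05 under any of the 19 alternatives, and the median of the members stayed above 0 in each. The number with an unadjusted p under 0.05 (12) became 26 with library size alone, 7 without a filter on low counts, 5 with the gene length offset and 4 with the transcript length offset. Leaving out 1 library at a time gave 0 to 19, with a median of the members of 0.17 to 0.31, and medians of 0.21 to 0.33 (complex I), -0.059 to 0.19 (II), 0.12 to 0.25 (III), 0.18 to 0.36 (IV) and 0.17 to 0.30 (V). The count was 0 without WT 2, 3 without WT 1, 4 without cTG 3, 16 without cTG 2 and 19 without cTG 1. Without cTG 2, complex II had 0.19. In the order I, II, III, IV and V, the medians were 0.15, 0.0022, 0.10, 0.16 and 0.14 with the gene length offset, 0.14, 0.039, 0.091, 0.15 and 0.10 with the transcript length offset, 0.16, 0.11, 0.16, 0.13 and 0.16 with limma-voom and sample weights, and 0.16, 0.18, 0.13, 0.13 and 0.18 without replicate 2 of both groups. With limma-voom the median of the members was 0.15. With library size alone the median over all genes moved to 0.031, and the members' to 0.27. Among 28 named subunits, 6 changed sign somewhere, all with small values. Sdha had 0.11 with limma-voom, 0.18 without cTG 2, 0.0029 with the GC offset and 0.18 without replicate 2 of both groups. Ndufs1 had 0.043 with limma-voom, 0.010 with the gene length offset, 0.15 without cTG 2 and 0.15 without replicate 2 of both groups. Ndufa4l2 had -0.040 with limma-voom, -0.00019 with the transcript length offset and -0.084 without replicate 2 of both groups. Atp5a1 (-0.028) and Sdhc (-0.070) changed sign without cTG 3, and Cox4i2 (0.049) without WT 1. Over the libraries left out in turn, Sdha ran from -0.20 to 0.18, Ndufs1 from -0.27 to 0.15, Sdhc from -0.070 to 0.20, Atp5a1 from -0.028 to 0.15 and Cox4i2 from -0.22 to 0.049. The cause of these changes was not tested.

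With the replicate number as a block, 13 members had an unadjusted p under 0.05, their median was 0.23, and no call changed. The labels give the libraries of a block only a shared number, and whether they shared anything else is not known. Deviations from the group mean correlated at 0.069, 0.43 and 0.19 within the numbers 1, 2 and 3. Over the whole table, 285 genes had an unadjusted p under 0.05 in the fit without the block and 499 with it, and the 3 genes called by limma-voom, the 3 without cTG 2, the 3 without a filter and the 6 without replicate 2 of both groups hold no member.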
